A study of Homo sapiens with 4 samples.

Results

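MicroRNA host genes are long noncoding RNA (lncRNA) genes whose span holds one or more microRNA hairpins, in an intron or in an exon. The genes described here are those of GENCODE release 29 whose name starts with MIR and ends with HG, except *MIR4435-2HG*, a paralogue of the lncRNA gene *CYTOR*. The rule uses their names and no measured value, although it was set with earlier results of these data known. The rule gave 61 genes. Of these, 60 genes with 377 transcripts were in a table of 106179 transcripts, whose named transcripts came from 29585 genes. *MIR4697HG* is not analysed here. A count was found for 37 of the 60 genes, and 23 were at 0 in all 4 libraries. The expression filter of the test left 26 of them.

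The study sequenced total RNA of HepG2, a cell line established from a human liver tumour, and compared wild-type cells (2 libraries) with cells made resistant to oxaliplatin, a platinum drug that crosslinks DNA (2 libraries). Both groups grew in DMEM with serum and antibiotics, no treatment before harvest is listed for either, and the sources used here give neither the drug dose nor the length of selection. Wild-type libraries 1 and 2 held 38113398 and 34898860 estimated counts, and resistant libraries 1 and 2 held 43473826 and 44063444. The labels name no separate cultures and do not say whether the resistant cells were 1 clone. The p-values below therefore rest on a spread between libraries that may be purely technical. The table holds noncoding transcripts and almost no mRNAs, which limits a check of the cell type: of 16 hepatocyte marker genes, 11 had a transcript in it, and *AFP*, *TF*, *TTR*, *FGB* and *SERPINA1* among these were at 0 in every library. Noncoding transcripts of *ALB*, the albumin gene, had 8, 0, 0 and 0 counts in wild type 1, wild type 2, resistant 1 and resistant 2, the order of libraries used from here on. The summed level of the 11 genes lay between 49.2 and 86.3 CPM (counts scaled to library size) and came almost wholly from *CPS1*, a urea cycle gene, with 2118, 2338, 2308 and 1724 counts. Fibroblast and endothelial markers (8 genes in the table, 3 at 0) summed to 1.42 to 3.27 CPM. Of the leukocyte markers, *CD3E* was at 0 and *PTPRC* had a count in resistant 1 alone.

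A microRNA is made in steps. The nuclear enzyme DROSHA, with its partner DGCR8, cuts the hairpin out of the host transcript, exportin-5 carries it to the cytoplasm, and DICER1 trims it to the mature strand that an Argonaute protein loads. A hairpin in an intron can be cut while the host RNA is still spliced, whereas cutting a hairpin in an exon destroys that exon. The mature strand finds its targets mainly through its seed, the bases from 2 to 8. The counts here are of host transcripts. Mature microRNAs were not measured, and the level of a host is not the level of its microRNA.

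GENCODE placed 96 hairpins within the spans of these genes, 92 of them on the strand of the host, and 59 of the 61 genes hold one on their strand. The RefSeq microRNA table (GRCh38.p14) held mature sequences for 87 of the 92 on the strand of the host, under 137 names. The sequences below belong to the hosts with the most counts or the largest fitted differences, with the seed in capitals. The first set shares the let-7 seed, which 5 hosts of the 26 carry.
hsa-let-7c-5p (*MIR99AHG*): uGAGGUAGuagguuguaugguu
hsa-let-7a-5p (*MIR100HG* and *MIRLET7BHG*): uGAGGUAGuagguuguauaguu
hsa-let-7b-5p (*MIRLET7BHG*): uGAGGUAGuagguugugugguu
hsa-miR-4458 (*MIR4458HG*): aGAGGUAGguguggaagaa
hsa-miR-4500 (*MIR4500HG*): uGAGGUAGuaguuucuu

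*MIR99AHG* and *MIR100HG* carry parallel clusters. Each holds a let-7 hairpin, a hairpin of the miR-99 and miR-100 family and a miR-125b hairpin, and both miR-125b hairpins give the same 5p strand.
hsa-miR-99a-5p (*MIR99AHG*): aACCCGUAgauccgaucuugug
hsa-miR-100-5p (*MIR100HG*): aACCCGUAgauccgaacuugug
hsa-miR-125b-5p (both hosts): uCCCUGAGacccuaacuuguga

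The miR-181 family is also spread over 2 hosts, *MIR181A1HG* on chromosome 1 and *MIR181A2HG* on chromosome 9, each with a miR-181a and a miR-181b hairpin. In *MIR222HG*, *MIR17HG* and *MIR497HG*, strands that share a seed lie in 1 host.
hsa-miR-181a-5p (*MIR181A1HG* and *MIR181A2HG*): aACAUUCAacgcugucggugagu
hsa-miR-181b-5p (*MIR181A1HG* and *MIR181A2HG*): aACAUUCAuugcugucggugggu
hsa-miR-221-3p (*MIR222HG*): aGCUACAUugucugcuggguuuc
hsa-miR-222-3p (*MIR222HG*): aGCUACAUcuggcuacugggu
hsa-miR-17-5p (*MIR17HG*): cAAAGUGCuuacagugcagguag
hsa-miR-20a-5p (*MIR17HG*): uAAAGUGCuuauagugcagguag
hsa-miR-19a-3p (*MIR17HG*): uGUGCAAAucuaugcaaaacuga
hsa-miR-19b-3p (*MIR17HG*): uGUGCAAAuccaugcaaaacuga
hsa-miR-497-5p (*MIR497HG*): cAGCAGCAcacugugguuugu
hsa-miR-195-5p (*MIR497HG*): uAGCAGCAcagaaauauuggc

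The remaining strands have a seed of their own among these hosts.
hsa-miR-31-5p (*MIR31HG*): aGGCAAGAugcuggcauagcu
hsa-miR-34a-5p (*MIR34AHG*): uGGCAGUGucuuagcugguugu
hsa-miR-22-3p (*MIR22HG*): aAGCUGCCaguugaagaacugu
hsa-miR-193b-3p (*MIR193BHG*): aACUGGCCcucaaagucccgcu
hsa-miR-365a-3p (*MIR193BHG*): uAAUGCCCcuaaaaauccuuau
hsa-miR-3936 (*MIR3936HG*): uAAGGGGUguauggcagaugca

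The question put to these genes was whether their level differed between resistant and wild-type cells. *MIR31HG* and *MIR99AHG* dominated the group in every library, together taking 55.0%, 58.0%, 76.6% and 54.5% of its counts. Summed over all members, the level was 2298 and 1912 CPM in the wild-type libraries against 3606 and 1754 CPM in the resistant ones. CPM here are scaled to the tested genes of a library by trimmed mean of M-values (TMM). The groups overlapped, since resistant 1 was the highest library and resistant 2 the lowest. The wild-type mean was 2105 ± 273 CPM and the resistant mean 2680 ± 1310 CPM (SD, n = 2 each), a ratio of 1.27 that became 0.833 without resistant 1. Without *MIR31HG* the means were 1594 ± 243 and 1454 ± 286 CPM. As a share of all deposited counts the members took 0.178%, 0.149%, 0.312% and 0.146%. In bulk RNA, fewer cells that express a gene and less of its RNA per cell cannot be told apart.

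**Figure D1:**
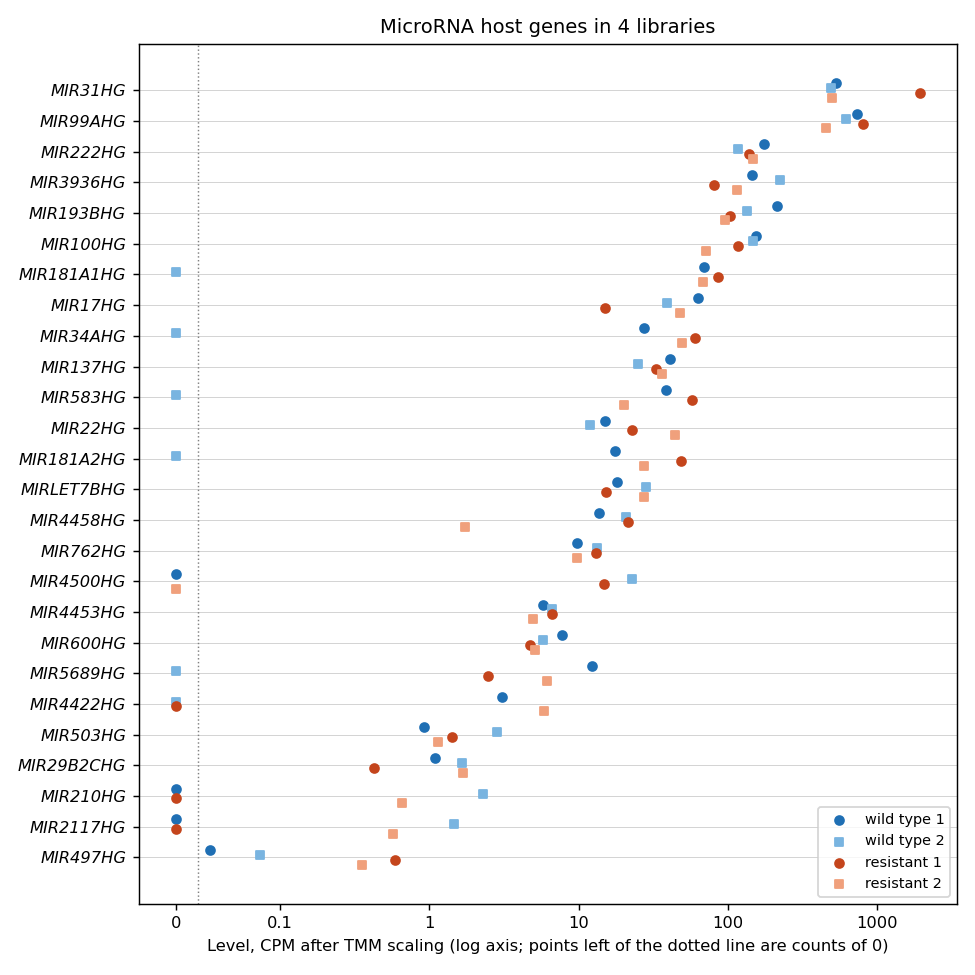
Level of the 26 tested microRNA host genes in each library, in CPM after TMM scaling on a log axis, ordered by mean level, with wild-type libraries in blue and resistant libraries in red. *MIR31HG* in resistant 1 (1949 CPM) stands apart from its other 3 libraries (490 to 531 CPM), and 9 genes have at least 1 library at 0, drawn left of the dotted line.

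The hosts of the let-7 seed were led by *MIR99AHG* (chr21:15928296-16645065, plus strand), a gene with 21 transcripts in the table. It had 21642 and 16832 counts in the wild-type libraries against 30517 and 16630 in the resistant ones, or 732, 618, 812 and 454 CPM. Resistant 1 was the highest and resistant 2 the lowest library, with both wild-type libraries between them. The fitted log2 fold change, resistant minus wild type, was -0.09 ± 0.38 (SE; adjusted p = 0.965 in edgeR's quasi-likelihood test with Benjamini-Hochberg adjustment, the test and the adjustment used throughout). Its paralogous host *MIR100HG* (chr11:122028327-122556721, minus strand) had 4550 and 4001 counts in the wild-type libraries against 4380 and 2617 in the resistant ones. After scaling, the resistant libraries were lower, at 117 and 71.5 CPM against 154 and 147 CPM, and the groups did not overlap. The log2 fold change was -0.68 ± 0.34 (edgeR adjusted p = 0.694), which did not pass.

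*MIRLET7BHG* (chr22:46053869-46113928), the host of let-7a-3 and let-7b, had 537, 774, 576 and 1003 counts. The groups overlapped, at 18.2 and 28.4 CPM in wild type against 15.3 and 27.4 CPM in resistant cells. *MIR4458HG* (chr5:8450743-8463095) had 408, 568, 802 and 63 counts, so that 1 resistant library was the highest and the other the lowest. *MIR4500HG* (chr13:87427214-87671259) had 0, 616, 556 and 0 counts, with 1 library of each group at 0. Summed over these 5 hosts, the level was 918, 837, 980 and 555 CPM, most of it from *MIR99AHG*.

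*MIR31HG* (chr9:21455642-21559669, minus strand) lies near the *CDKN2A* and *CDKN2B* tumour suppressor genes and has 1 transcript in the table. Its counts were 15713 and 13338 in the wild-type libraries against 73257 and 18375 in the resistant ones, which scale to 531, 490, 1949 and 502 CPM. Resistant 1 was far above the other 3 libraries, while resistant 2 lay between the wild-type ones, so the groups overlapped. The log2 fold change was 1.26 ± 0.74 (edgeR adjusted p = 0.720). Without resistant 1 it was -0.022. With the counts divided by transcript length and scaled to the same total in each library (TPM, over the named transcripts), *MIR99AHG* averaged 1310 TPM and *MIR31HG* 1298 TPM over the 4 libraries. Their ranges overlapped, from 893 to 1698 TPM and from 696 to 3024 TPM, so neither stood above the other. Next per length came *MIR100HG* at 104 to 239 TPM, *MIR222HG* at 89.5 to 133 TPM and *MIR3936HG* at 52.5 to 172 TPM. These 3 ranges overlapped each other and lay below those of the leading pair.

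*MIR222HG* (chrX:45745211-45770274, minus strand) hosts miR-221 and miR-222, whose known targets include the cell cycle inhibitor p27. It had 5146, 3177, 5211 and 5419 counts, or 174 and 117 CPM in the wild-type libraries against 139 and 148 CPM in the resistant ones. Both resistant libraries fell inside the wild-type range, and the log2 fold change was -0.02 ± 0.31. *MIR193BHG* (chr16:14301389-14331067) hosts miR-193b and miR-365a and had 6336 and 3668 counts in the wild-type libraries against 3866 and 3478 in the resistant ones. At 214 and 135 CPM against 103 and 95.0 CPM, the groups did not overlap. The log2 fold change of -0.82 ± 0.33 did not pass (edgeR adjusted p = 0.644).

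*MIR3936HG* (chr5:132311285-132369916, minus strand) runs antisense to *SLC22A4* and *SLC22A5*, which encode carnitine and organic cation transporters. Its counts were 4323, 6079, 3014 and 4229, and its levels 146 and 223 CPM in the wild-type libraries against 80.2 and 116 CPM in the resistant ones. The resistant libraries lay below the wild-type ones, and the log2 fold change was -0.92 ± 0.37 (edgeR adjusted p = 0.640). Exons of protein-coding genes cover 10.1% of its exonic bases on the other strand. The noncoding transcripts of *SLC22A4* had 3931 and 2518 counts in the wild-type libraries against 5533 and 6051 in the resistant ones. Those of *SLC22A5*, which also overlaps the host on the other strand, had 3578 and 3017 against 3331 and 3857. The sources used here do not say whether counting used strand, so reads of the overlapping exons cannot be told apart.

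*MIR17HG* (chr13:91347820-91354579) hosts the miR-17 to miR-92a cluster, a target of MYC. It had 1880, 1066, 567 and 1745 counts, or 63.6, 39.2, 15.1 and 47.7 CPM. Resistant 1 was the lowest library and resistant 2 lay between the wild-type ones. The log2 fold change was -0.71 ± 0.70. *MIR137HG* (chr1:97933474-98049863) had 1215, 684, 1238 and 1328 counts. After scaling the groups overlapped, at 41.1 and 25.1 CPM in wild type against 32.9 and 36.3 CPM in resistant cells. The log2 fold change was 0.06 ± 0.37. *MIR137HG* shares 6.89% of its exonic bases with *DPYD*, a coding gene on the same strand.

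*MIR22HG* (chr17:1711493-1717174, minus strand) had the largest positive log2 fold change among the hosts with over 100 counts in every library. It had 444 and 325 counts in the wild-type libraries against 859 and 1615 in the resistant ones, or 15.0 and 11.9 CPM against 22.9 and 44.1 CPM. Both resistant libraries were above both wild-type ones. The mean was 2.49-fold higher, at 33.5 ± 15.0 against 13.5 ± 2.17 CPM (SD, n = 2 each), and the log2 fold change of 1.31 ± 0.47 did not pass (edgeR unadjusted p = 0.053, adjusted p = 0.585). Over the alternative settings its log2 fold change lay between 0.77 and 1.71.

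*MIR34AHG* (chr1:9148011-9198906, minus strand) hosts miR-34a, a direct target of p53. It had 813 and 0 counts in the wild-type libraries against 2280 and 1804 in the resistant ones. The resistant libraries were higher than both wild-type ones, at 60.7 and 49.3 CPM against 27.5 and 0 CPM, and wild type 1 alone carried the wild-type counts. A count of 0 in wild type 2 allows up to 0.110 CPM, which covers counting error only. The log2 fold change was 2.00 ± 2.52 (edgeR adjusted p = 0.877). The lncRNA *LNCTAM34A*, which overlaps it on the opposite strand, had 16, 0, 114 and 296 counts.

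Both hosts of the miR-181 family showed the same gap in wild type 2. *MIR181A1HG* (chr1:198807493-198937429) had 2062, 0, 3230 and 2512 counts, and *MIR181A2HG* (chr9:124658467-124698631) had 519, 0, 1814 and 1011. Summed, the family's hosts were at 87.3 and 0 CPM in the wild-type libraries against 134 and 96.3 CPM in the resistant ones. *MIR583HG* had 1141, 0, 2173 and 742 counts. *AC104123.1*, which overlaps it on the same strand and also holds *MIR583*, had 0, 6794, 1808 and 1567. Where one of these genes was at 0 in a wild-type library, the other was not, and how reads were divided between them was not tested.

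Other genes were searched for such gaps within a pair, a search prompted by the gaps described above. The comparison genes were not matched for level beyond a minimum of 500 counts, nor for number of transcripts. Of the 15 members with at least 500 counts in a wild-type library, 5 (33.3%) were at 0 in the other wild-type library: *MIR181A1HG*, *MIR181A2HG*, *MIR34AHG* and *MIR583HG* in wild type 2, and *MIR4500HG* in wild type 1. Over all genes the share was 1.89% (114 of 6024). In the resistant pair it was 1 of 16 members (6.25%, *MIR4500HG*) and 1.53% over all genes (101 of 6584). The median absolute log2 ratio between the libraries of a pair was 0.66 in the wild-type libraries against 0.82 in the resistant ones over the 26 members, against 0.57 and 0.51 over all 13745 genes tested.

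Several hosts of low count had the largest fitted differences. *MIR497HG*, the host of miR-195 and miR-497, had 1 and 2 counts in the wild-type libraries against 22 and 13 in the resistant ones. The resistant libraries were higher, at 0.585 and 0.355 CPM, while both wild-type libraries lay under the level that 3 counts give. Its log2 fold change was 3.05 ± 0.91 (edgeR unadjusted p = 0.032, adjusted p = 0.511). Exons of protein-coding genes, *C17orf49* among them, cover 38.2% of its exonic bases. *AC040977.2*, which overlaps it on the same strand and holds the same hairpins, had 322 and 379 counts in the wild-type libraries against 329 and 0 in the resistant ones. That gene was lower in both resistant libraries, at 8.76 and 0 CPM against 10.9 and 13.9 CPM, and how reads were divided between these genes was not tested. *MIR210HG*, whose microRNA is induced by hypoxia, had 0, 62, 0 and 24 counts, and *MIR2117HG* had 0, 40, 0 and 21. In both, replicate 1 of each group was at 0 and replicate 2 was not.

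**Figure D2:**
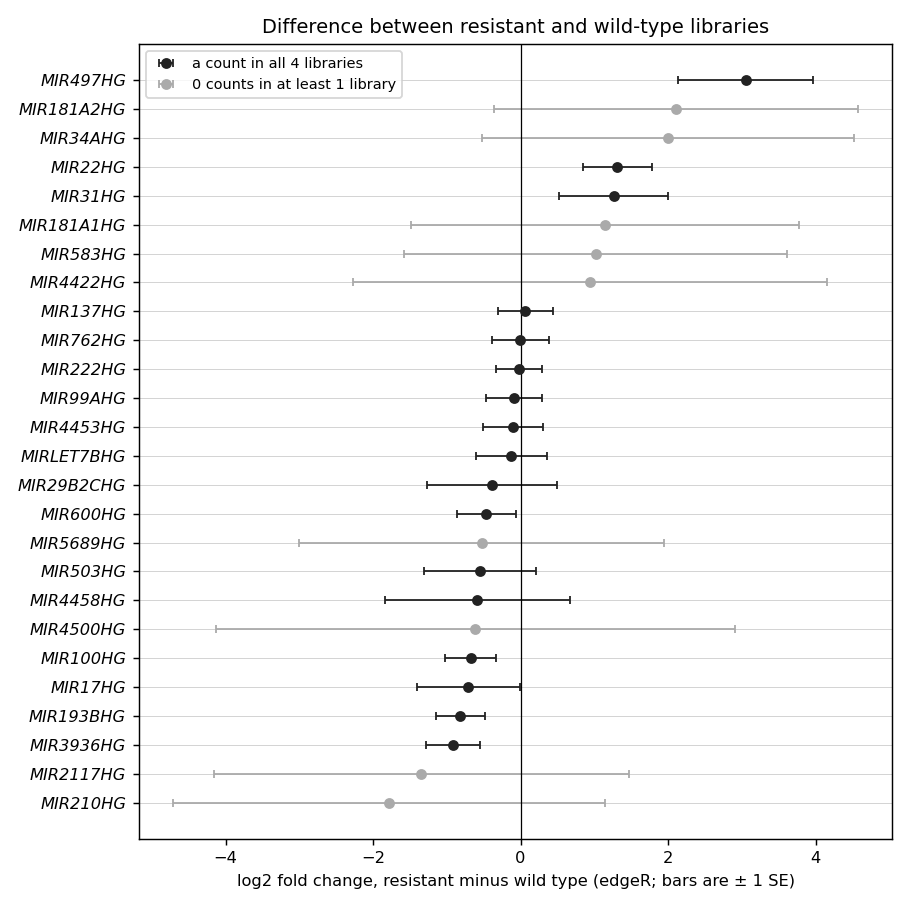
Fitted log2 fold change, resistant minus wild type, of the 26 tested host genes (points), from edgeR's quasi-likelihood fit over 13745 genes. Bars give 1 standard error on either side, derived from the fold change and the F statistic of the test. Genes with a library at 0 (grey) have the widest bars, up to 3.52 for *MIR4500HG*, and *MIR497HG* (3.05 ± 0.91) lies farthest above 0.

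Across the 26 members, edgeR called 0 genes at an adjusted p under 0.05, where it called 0.0% of all genes, and the smallest adjusted p of a member was 0.511. limma-voom and DESeq2 also called 0 members, although DESeq2 called 4.6% of all genes. At an unadjusted p under 0.05 edgeR gave 1 member, *MIR497HG*, against 8.67% of all genes in either direction, and 4.74% in the direction of *MIR497HG*, higher in resistant cells. A positive log2 fold change was found for 9 members and a negative one for 17, while 50.8% of all genes had a positive one. The median was -0.11 over the members and 0.01 over all genes tested, and the sign of the member median depended on which library was left out. The groups did not overlap for 4 members with higher resistant libraries (*MIR497HG*, *MIR181A2HG*, *MIR34AHG* and *MIR22HG*), a pattern that 22.5% of all genes had. They did not overlap for 4 with lower ones (*MIR3936HG*, *MIR193BHG*, *MIR100HG* and *MIR600HG*), against 20.5% of all genes. The common dispersion was 0.542, a coefficient of variation of 0.736 between libraries. On counts simulated for this gene comparison with edgeR's dispersion estimate for each gene, the edgeR test called 0 of 100 genes changed 16-fold. These estimates are drawn toward a trend over all genes and can exceed a gene's own spread. At those dispersions this edgeR fit could not be expected to call differences of that size. The simulation did not cover DESeq2 or limma-voom.

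The 11 members with a count that were not tested had at most 256 counts in all. That maximum belonged to *MIR646HG*, singled out after its values were seen, with all of its counts in resistant 2. *MIR155HG*, whose microRNA is abundant in activated lymphocytes, had 0, 0, 0 and 17 counts. *MIR200CHG*, host of the epithelial miR-200c and miR-141, had 2 counts, both in resistant 2. *MIR194-2HG*, host of miR-192 and miR-194, which are abundant in liver and gut, had 1, 0, 24 and 1. *MIR122HG* hosts miR-122, the dominant microRNA of hepatocytes, and was at 0 in every library. A count of 0 allows up to 0.0798 to 0.110 CPM in these libraries. Also at 0 throughout were *MIR205HG*, *MIR9-3HG* and *MIR381HG*.

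The second question was which transcripts of a host carried its counts. Of the 377 transcripts, 111 had a count and 38 had one in all 4 libraries. Isoform shares were compared for the 13 hosts with at least 100 counts in every library, of which 11 had more than 1 counted transcript. In 5 of these 11 (45.45%) the same transcript led in all 4 libraries. The leader was shared within the wild-type pair in 8 and within the resistant pair in 5.

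*MIR222HG* was led by ENST00000602461, at 99.1% to 99.6% of its counts in each library. In *MIR137HG*, ENST00000634594 held 88.5% to 95.6%. *MIR17HG* kept ENST00000400282 as leader, at 77.6% and 64.8% in the wild-type libraries against 47.8% and 71.7% in the resistant ones. Its second transcript, ENST00000582141, is annotated as a retained intron and held 14.9%, 24.6%, 43.6% and 21.6%.

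*MIR99AHG* was led everywhere by ENST00000419952, a transcript of 522 bases that ends before the hairpins. It had 14847 and 12952 counts in the wild-type libraries against 10924 and 10060 in the resistant ones, which was 68.6% and 76.9% of the gene against 35.8% and 60.5%. Count and share were lower in each resistant library. The log2 fold change of the transcript was -0.78 ± 0.26 (edgeR unadjusted p = 0.048, adjusted p = 0.635). ENST00000602339 came second, with 2895, 1985, 2633 and 4066 counts. In resistant 1, ENST00000428669 had 7623 counts and ENST00000453910 had 7160, against 0 and 60 in resistant 2.

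*MIR100HG*, with 19 counted transcripts, had a different leader in each library. ENST00000526674 led in wild type 1 (18.5% of the gene), ENST00000528381 in wild type 2 (36.3%), ENST00000648734 in resistant 1 (28.7%) and ENST00000534782 in resistant 2 (27.0%). ENST00000526674 was counted in all 4 libraries, with 840, 542, 504 and 315 counts, whereas ENST00000528381 had all of its 1452 counts in wild type 2. *MIR193BHG* was led by ENST00000641433 in 3 libraries, with 4832, 2402 and 2853 counts, and had 27 counts of it in resistant 2. There ENST00000570945 led with 2276 counts, after 8, 870 and 241 in the others.

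*MIR22HG* had 17 counted transcripts and 3 leaders: ENST00000576749 in wild type 1, ENST00000334146 in resistant 1, and ENST00000574306 in wild type 2 and resistant 2. *MIRLET7BHG* also had 3 leaders among 4 counted transcripts. *MIR3936HG* was led by ENST00000621103 in all 4, with 4067 and 4792 counts in the wild-type libraries against 2982 and 2761 in the resistant ones. Both resistant libraries were lower, and the log2 fold change was -1.01 ± 0.32 (edgeR unadjusted p = 0.042, adjusted p = 0.607).

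**Figure D3:**
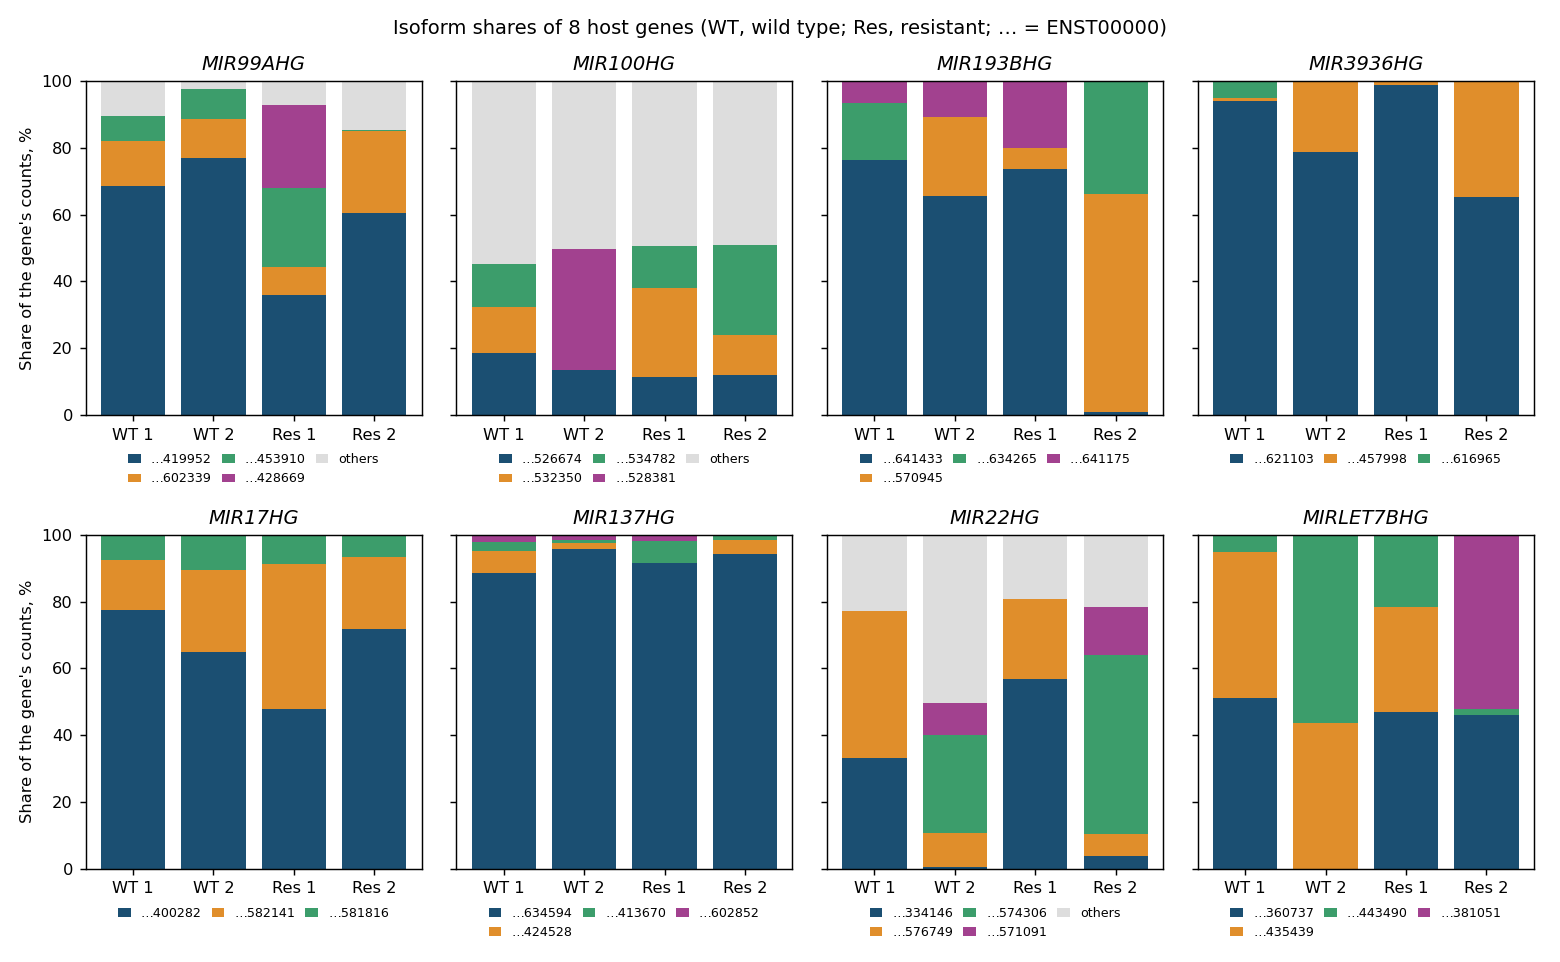
Share of each host gene's counts held by its transcripts of highest mean share (colours; grey for the rest) in the 4 libraries, in percent, for 8 host genes. *MIR137HG* keeps its leading transcript at 88.5% or more, while *MIR100HG*, *MIR193BHG*, *MIR22HG* and *MIRLET7BHG* change leader between libraries of the same group.

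Tested one by one, 69 member transcripts passed the filter, and edgeR called 0 of them at an adjusted p under 0.05, where it called 0.0% of the 42393 transcripts tested (smallest adjusted p of a member 0.335). limma-voom called 0 and DESeq2 called 10, with 5.33% of all transcripts called by DESeq2. Those 10 were 5 transcripts of *MIR22HG*, 4 of *MIR100HG* and ENST00000606459 of *MIR4458HG*. At an unadjusted p under 0.05 edgeR gave 12, against 7.74% of all transcripts. Of these, 6 were higher in resistant cells (4.56% of all transcripts were) and 6 lower (3.18%). They came from 5 genes, 5 from *MIR22HG*, 4 from *MIR100HG* and 1 each from *MIR3936HG*, *MIR4458HG* and *MIR99AHG*. Transcripts of 1 gene are not independent of each other. The median absolute log2 ratio within a pair was 0.95 in wild type and 1.54 in resistant cells over the 69 member transcripts. Over all 42393 transcripts tested it was 0.71 and 0.61.

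The fitted differences of the 4 transcripts of *MIR100HG* pointed in both directions. ENST00000648734 had 0 and 0 counts in the wild-type libraries against 1257 and 104 in the resistant ones, a mean at least 172-fold higher when each wild-type library is set to 3 counts. ENST00000534297 had 143 and 401 counts in the wild-type libraries and none in the resistant ones, at least 120-fold lower. ENST00000648213 had 101 and 49 against 0 and 0, at least 31.9-fold lower, and ENST00000649293 had 217 and 62 against 1 and 0. Such bounds cover counting error only. These transcripts passed the filter through the group where they had counts and were picked by p-value, so their one-sided pattern is no separate result. None passed adjustment in edgeR, while DESeq2 called all 4 of these transcripts, with adjusted p from 7.3e-06 to 4.1e-04. Within a group this gene also had transcripts with over 100 counts in a library and none in its partner, 5 of them in the wild-type pair and 1 in the resistant pair.

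In *MIR22HG*, 4 short transcripts were at 0 in both wild-type libraries. ENST00000574016 had 37 and 71 counts in the resistant libraries, at least 14.0-fold higher, ENST00000608913 had 23 and 73, ENST00000609442 had 20 and 69, and ENST00000609398 had 20 and 51. ENST00000576489 had 40 and 15 counts in wild type and none in resistant cells, at least 11.6-fold lower. Each had counts in 1 group alone. Through that group it passed the filter, and it was picked by its p-value, so this pattern is no separate result. Each was a small part of the gene, at most 9.01% of its counts in any library.

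ENST00000606459 of *MIR4458HG* was counted in every library, with 6 and 9 counts in the wild-type libraries against 74 and 62 in the resistant ones. Both resistant libraries were higher, and the log2 fold change was 2.78 ± 0.59 (edgeR unadjusted p = 0.013, adjusted p = 0.374). This transcript of 3239 bases holds the miR-4458 hairpin (chr5:8460925-8460999) in an exon. The gene's other counted transcript does not span the hairpin, so the share of the gene's counts on the hairpin-bearing transcript was 1.47% and 1.58% in the wild-type libraries against 9.23% and 98.4% in the resistant ones. The last value rests on a total of 63 counts. On the opposite strand, the overlapping lncRNA *LINC02226* had 135, 20, 124 and 0 counts and *AC091965.1* had 0, 0, 0 and 169.

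The third question was where the hairpin lay in the transcripts that were counted. For each host, counts were split into transcripts that hold a same-strand hairpin whole within an exon, those that hold it in an intron, and those that do not span it whole. Over all members the exonic class took 3.71% and 2.21% of the counts in the wild-type libraries against 3.21% and 7.71% in the resistant ones. The intronic class took 64.0% and 62.2% against 83.2% and 66.4%. The groups overlapped for the exonic class and not for the intronic one, where resistant 1, the library with the high *MIR31HG* count, was the highest. All counts of *MIR31HG* (15713, 13338, 73257 and 18375) fall in the intronic class. The split was not made without this gene, so the separation may rest on it. Neither class was tested.

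Of the 26 tested hosts, 11 had counts on a transcript with a hairpin whole in an exon. *MIR22HG* was exonic in full, since all 17 of its counted transcripts hold the hairpin (chr17:1713903-1713987) in an exon. In *MIR34AHG* the transcript ENST00000635687, of 4211 bases, took 99.96% to 100% of the counts where the gene was counted, and the hairpin (chr1:9151668-9151777, minus strand) lies at its bases 445 to 554. The precursor is shown with both mature arms in capitals, as an example of a hairpin that the counted RNA itself contains.
MIR34A hairpin: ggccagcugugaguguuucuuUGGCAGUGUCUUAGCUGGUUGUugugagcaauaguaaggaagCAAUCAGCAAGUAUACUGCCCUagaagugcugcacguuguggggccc

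*MIR600HG* and *MIR4453HG* were exonic in every library as well. *MIR17HG* was mixed. Its leading transcript has all 6 hairpins of the cluster (from chr13:91350605 to 91351391) in an intron, and the other 2 transcripts, which hold them in an exon, took 22.4% and 35.2% of the counts in the wild-type libraries against 52.2% and 28.3% in the resistant ones. In *MIRLET7BHG* the exonic transcript ENST00000360737 took 51.0%, 0%, 47.0% and 46.0%, so that wild type 2 alone lacked it.

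The 7 hosts of highest mean CPM had no counts on a transcript with a hairpin whole in an exon. The counted transcript of *MIR31HG* has the miR-31 hairpin (chr9:21512115-21512185, minus strand) in an intron, as do all 4 of *MIR193BHG* for both of its hairpins and the leading one of *MIR222HG*. The miR-31 precursor, with the annotated mature strand in capitals, is the counterpart of the one above: the counted RNA contains none of it.
MIR31 hairpin: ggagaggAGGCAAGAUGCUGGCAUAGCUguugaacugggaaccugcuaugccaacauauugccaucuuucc

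In *MIR99AHG* the transcripts that span its 3 hairpins, which lie 610793, 611532 and 661941 bases from the gene's start, hold them in introns and took 28.0% and 22.6% of the counts in the wild-type libraries against 62.7% and 39.5% in the resistant ones. Both resistant libraries were above both wild-type ones. In *MIR100HG*, transcripts with at least 1 hairpin in an intron took 44.9% and 27.6% of the counts against 58.6% and 63.0%, and those with MIRLET7A2 and MIR100 in one took 35.1% and 18.2% against 49.7% and 50.5%. The groups did not overlap for either share, and the second share is part of the first. In *MIR99AHG* nearly all of the rest was its leading transcript, so the spanning share moves against that of the leader. The shares of both hosts were not tested. How often such shares separate over all genes was not computed. Neither counted transcript of *MIR181A1HG* spans its hairpins.

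**Figure D4:**
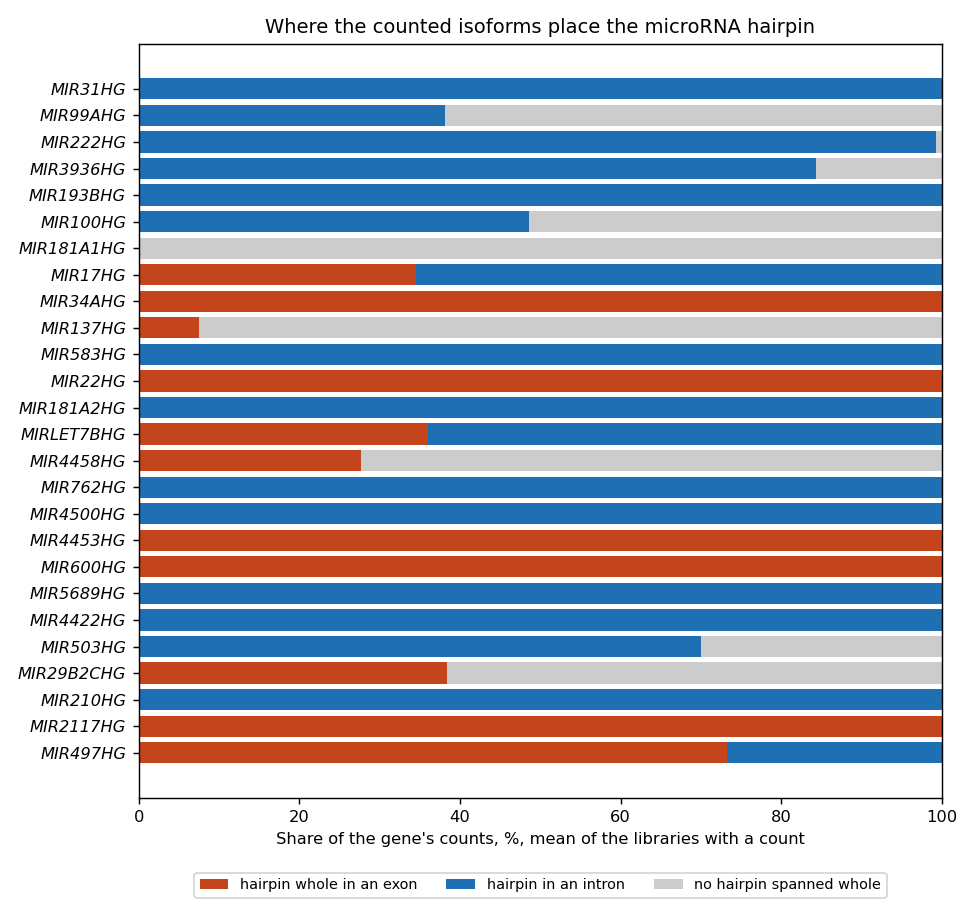
Share of each host gene's counts on transcripts with a hairpin whole in an exon (red), in an intron (blue) or not spanned whole (grey), in percent, as the mean of the libraries with a count, for the 26 tested hosts in order of mean level. *MIR22HG* and *MIR34AHG* are exonic, *MIR31HG*, *MIR193BHG* and *MIR222HG* intronic, and *MIR181A1HG* was counted on transcripts that stop short of the hairpins.

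**Figure D5:**
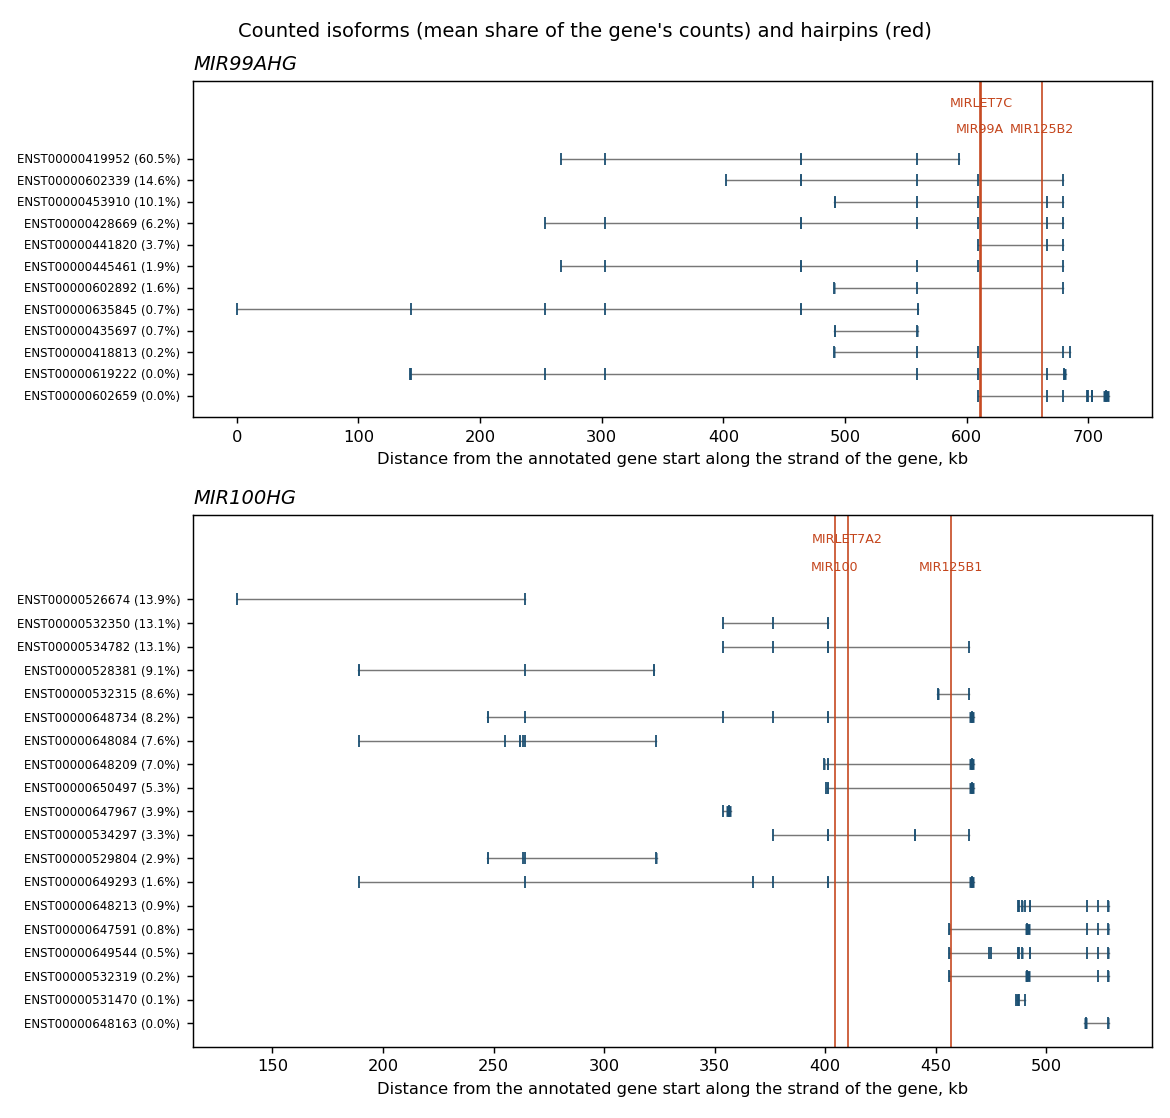
Annotated span of each counted transcript of *MIR99AHG* and *MIR100HG* (lines, with exons as ticks) against the microRNA hairpins (red), by distance from the gene's start in kilobases; labels give the mean share of the gene's counts over the 4 libraries. The leading transcript of *MIR99AHG* (60.5% on average) ends before the first hairpin, and the counted transcripts of *MIR100HG* start and end on both sides of its 3 hairpins.

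The machinery that makes microRNAs was represented by noncoding transcripts of 23 genes from a list of 26, all of them tested. In edgeR, limma-voom and DESeq2, 0 passed adjustment, and in edgeR 0 reached an unadjusted p under 0.05 (background 4.74% higher and 3.93% lower). The groups did not overlap for 6 with higher and 4 with lower resistant libraries, against 22.5% and 20.5% of all genes, and the median log2 fold change was 0.20, against 0.01 over all genes. The noncoding transcripts of *DDX17*, a helicase of the nuclear cutting complex, had 25916, 21840, 39284 and 32018 counts. After scaling the groups overlapped, at 876 and 802 CPM in wild type against 1045 and 875 CPM in resistant cells. *ADAR*, which edits double-stranded RNA, had 391 and 410 CPM in the wild-type libraries against 980 and 471 CPM in the resistant ones. The groups did not overlap, although resistant 1 was far above resistant 2 (edgeR adjusted p = 0.695). The noncoding transcripts of *TUT4*, which adds uridines to let-7 precursors, were at 389 and 495 CPM in the wild-type libraries. In the resistant ones they were at 302 and 308 CPM, without overlap. The 4 libraries of *DDX5*, a helicase related to *DDX17*, lay between 349 and 530 CPM and overlapped. These are not mRNA levels.

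Another 104 lncRNA genes hold a microRNA gene on their strand without being named for it. In this set 41 were at 0 in all libraries and 45 were tested, of which 0 passed adjustment in edgeR and limma-voom. In DESeq2, 4 passed (2 in each direction), against 4.6% of all genes. In edgeR, 2 were higher and 4 lower at an unadjusted p under 0.05, against 4.74% and 3.93% of all genes. The median log2 fold change was -0.12. The summed level was 16475 and 19865 CPM in the wild-type libraries against 12990 and 13251 CPM in the resistant ones, above that of the named hosts in every library. *CYTOR*, the most abundant, was at 7838 and 8460 CPM in the wild-type libraries against 4157 and 5930 CPM in the resistant ones, and the groups did not overlap (edgeR adjusted p = 0.620). *AC133644.3*, which holds *MIR4435-1*, was at 4079 and 4663 against 2501 and 2997 CPM, likewise without overlap. *PVT1* and *FTX* overlapped, with 1343 to 2326 and 726 to 1194 CPM over the 4 libraries.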

How the data were processed

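RNA of 2 wild-type and 2 oxaliplatin-resistant HepG2 samples was sequenced, per the labels from 2 µg of total RNA with paired 150-base reads. The deposited table gives 1 estimated count per transcript and library, as a whole number, a unit read from the values. No aligner, counting tool or annotation is named in the labels or the file header (not given in the sources used here). A mouse build, mm9, stands in the submitters' processing notes, whereas the identifiers are human.

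Transcripts were matched by identifier to GENCODE release 29 on GRCh38 and summed per gene. Gene sums (13745 tested) and transcripts (42393 tested) were fitted with edgeR 4.0.16 in R 4.3.3: quasi-likelihood test, TMM factors, filterByExpr with a minimum count of 10, group as the sole term, two-sided, with Benjamini-Hochberg adjustment over all features and a threshold of 0.05. Members and lists were chosen with earlier results of these data known. The SE of a log2 fold change was derived as its absolute value divided by the square root of the F statistic of the quasi-likelihood test. TPM used annotated transcript lengths. A count of 0 allows up to 3 counts, for counting error only. Hairpin positions came from GENCODE and sequences from RefSeq. The text names members past a threshold, the 12 of highest mean CPM and the 5 of largest log2 fold change in each direction, with the 2 main isoforms of the most abundant hosts. The scripts were tested on simulated data with changed genes of known fold: at a dispersion of 0.01 the gene comparison called 100 of 100 genes changed 16-fold. Alternatives used other scalings, filters, DESeq2 1.42.0, limma-voom (limma 3.58.1), a replicate term and each library left out. Python 3.11.15, pandas 2.3.3 and matplotlib 3.10.9 made tables and figures.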

Additional observations from a re-analysis of the deposited data

How the results depend on the processing

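The number of host genes called stayed at 0 in edgeR under each scaling, filter, left-out library and replicate block, in limma-voom and in DESeq2. DESeq2 called 632 genes of the whole table and 10 host transcripts, where edgeR called 0 of each in every setting. The host genes at an unadjusted p under 0.05 numbered 1 in the reported fit and 0 to 5 in the others, with 5 without wild-type replicate 1 and 3 without resistant replicate 1. Host transcripts numbered 12 and ranged from 5 with the replicate block to 19 without wild-type replicate 1. The share of hosts with 1 leading isoform in all libraries was 62.5% with at least 500 counts required. The ratio of summed levels ranged from 0.833 to 1.71 when 1 library was left out, and the share of counts on exonic-hairpin transcripts was 4.21% on average, or 4.35% with hairpins of either strand.

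Of 173 log2 fold changes of the 16 named hosts under alternatives, 162 kept the direction and none passed adjustment. The other 11 were -0.022 for *MIR31HG* without resistant replicate 1, 0.036 and 0.27 for *MIR99AHG* without wild-type replicate 1 and resistant replicate 2, -0.25 for *MIR137HG* without wild-type replicate 2, 6.52 for *MIR210HG* and 6.33 for *MIR2117HG* without wild-type replicate 2, which leaves a wild-type library at 0, and 5 values of *MIR222HG*. The last were 0.036 without scaling factors, 0.0052 in limma-voom, 0.0080 with the replicate block, 0.30 without wild-type replicate 1 and 0.028 without resistant replicate 1. With each library left out in turn, the log2 fold change ranged from -0.022 to 1.94 for *MIR31HG*, -0.57 to 0.27 for *MIR99AHG*, -0.28 to 0.30 for *MIR222HG*, -0.25 to 0.46 for *MIR137HG*, -8.16 to 6.52 for *MIR210HG* and -7.53 to 6.33 for *MIR2117HG*. It also ranged from -1.76 to -0.11 for *MIR17HG*, 0.999 to 13.86 for *MIR34AHG*, 0.15 to 14.35 for *MIR181A1HG*, 1.11 to 13.32 for *MIR181A2HG* and 0.017 to 13.37 for *MIR583HG*, and the highest values of the last 4 were without wild-type replicate 1, which leaves a wild-type library at 0. Where a group keeps 1 library, that library is assumed to vary like the others. Omitting the scaling factors moved the median of all genes from 0.01 to 0.07. The member median was -0.11 in the reported fit. It was 0.30 without wild-type replicate 1, 0.23 without wild-type replicate 2, -0.02 without resistant replicate 1 and 0.05 without resistant replicate 2.

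Replicate numbers gave no sign of pairing in the counts: the deviations of same-numbered libraries correlated at -0.02 over genes and 0.01 over transcripts. Such a correlation cannot show whether samples were prepared in pairs. With the replicate block edgeR called 0 host genes, 0 host transcripts and 0 genes overall.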
